A study of Mus musculus with 4 samples.

Results

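The GABAergic interneuron marker genes are a set of 10 genes that mark the inhibitory nerve cells of the brain, and their messenger RNA was measured in whole brain of SAMP8 and SAMR1 mice. The set was chosen by name, and its members were found on the array by the accession of each probe. All 10 genes were found, by 13 of the 41174 distinct probes on the array (23374 probes could be named through an accession, for 16535 genes). The 3 genes for making and packaging the transmitter are Gad1, Gad2 and Slc32a1, with 4 probes. The 7 markers of interneuron subclasses are Pvalb, Sst, Vip, Cck, Calb1, Calb2 and Reln, with 9 probes.

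SAMP8 is a senescence-accelerated strain with early memory deficits, and SAMR1 is the senescence-resistant strain used as its control. The labels trace both to AKR/J with a suspected cross to an unknown line. SAMP8 mice received from 24 weeks of age, for 26 weeks, either a low-safflower oil control diet (LSO) or one that held whale meat extract (WME). SAMR1 mice had LSO alone. All mice had behavioural tests over 8 days from 49 weeks, and brains were taken at 50 weeks. SAMP8 WME and SAMP8 LSO RNA shared arrays in the diet pair, SAMP8 LSO and SAMR1 LSO RNA in the strain pair. Each pair was hybridised on 2 two-colour arrays, with the dyes exchanged between them. The labels do not give the number of mice behind an RNA. Nor do they say whether the SAMP8 LSO RNA is the same in both pairs. Each of the 3 groups was taken as 1 RNA, so the comparisons have no replicate check, and no p-value is given. The SD beside a log2 ratio is over the 2 arrays of a pair. It measures technical spread only and includes the dye bias of the probe, which the mean of both arrays cancels.

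GABAergic interneurons make GABA from glutamate with the decarboxylases encoded by Gad1 and Gad2, and load it into synaptic vesicles with the transporter encoded by Slc32a1. Cortical and hippocampal interneurons fall into subclasses that are told apart by calcium-binding proteins (parvalbumin, calbindin, calretinin), neuropeptides (somatostatin, VIP, cholecystokinin) and the secreted protein reelin. Several of these genes are not restricted to interneurons: Cck is also made by pyramidal cells, Calb1 and Pvalb by Purkinje cells of the cerebellum, and Calb2 and Reln by cerebellar granule cells. Gad1, Gad2 and Slc32a1 mark inhibitory nerve cells as a whole, not interneurons alone. In RNA from whole brain, fewer cells of a type and less RNA per cell cannot be told apart.

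Each of the 4 arrays had 43379 probe spots. In each channel between 81.4% and 85.6% of them stood well above background, and 0 were saturated. Precision is limited by how few arrays there are. All 13 member probes were well above background in all 8 channels. Markers of the labelled tissue were present, with 4 of 4 general neuron markers, 8 of 8 glutamatergic, 6 of 6 astrocyte, 6 of 6 oligodendrocyte and 6 of 6 microglia markers measured in both pairs. Across genes the turned ratios of the 2 diet arrays correlated at r = -0.27 and those of the 2 strain arrays at r = 0.51. Genes are not independent replicates.

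In the diet pair 0 of 10 members passed 1.2-fold with the same sign on both arrays, where 0.407% of 14744 measured genes did in either direction (0.109% at 1.5-fold). In the strain pair 0 of 10 members passed 1.2-fold, against 4.64% of 14797 genes (3.25% higher and 1.39% lower in SAMP8, and 1.47% at 1.5-fold in either direction). In the sum of both ratios, which sets SAMP8 WME indirectly against SAMR1 LSO, 0 of 10 passed 1.2-fold, against 3.7% of 14633 genes (1.21% at 1.5-fold). The sum takes SAMP8 LSO as the same RNA in both pairs. If it is the same, the diet and strain ratios share that RNA with opposite signs. They are therefore given side by side and not as support for each other. A member counts only when each array passes, so a large dye bias can keep a probe out. In simulated signals the 1.2-fold rule caught 4 of 50 true 1.2-fold changes in the diet pair and 6 of 50 in the strain pair. It caught 45 and 49 of 50 true 1.5-fold changes. A count of 0 thus does not exclude changes near 1.2-fold.

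Smaller differences were read against the technical SD of a mean ratio. The dye term of a probe is the part of its ratio that turns sign with the dyes. The technical SD came from how far the diet and strain dye terms of 1 probe differ, over the probes nearest in brightness, and it assumes that a probe's dye bias is the same in both pairs. It was between 0.0347 and 0.0529 for the member probes in either pair. For the sum, which adds 2 ratios, a larger technical SD was used, between 0.049 and 0.0748. Members at least 2 such SDs from 0 numbered 4 of 10 in the diet pair, Vip and Sst above (against 8.16% of all genes above) and Pvalb and Calb1 below (7.09%). In the strain pair they numbered 4 of 10, Calb1 above (18.1%) and Gad1, Cck and Reln below (14.8%). In the sum they were Vip above (12.9%) and Reln below (8.05%). These counts use the brightest probe of each gene. A second Gad1 probe stood 2.01 such SDs above 0 in the diet pair, where the brightest stood 1.32 above. By the sign alone, 2 members were above 0 on both diet arrays (20.6% of genes) and 2 below (14.6%). On both strain arrays 1 was above (25.9%) and 2 below (23.3%), and in the sum 1 was above (20.3%) and 1 below (13.5%). With 10 members, each count by sign is within 2 genes of the share among all genes. Both the limit of 2 SDs and the count by sign were chosen after the values were seen.

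**Figure D1:**
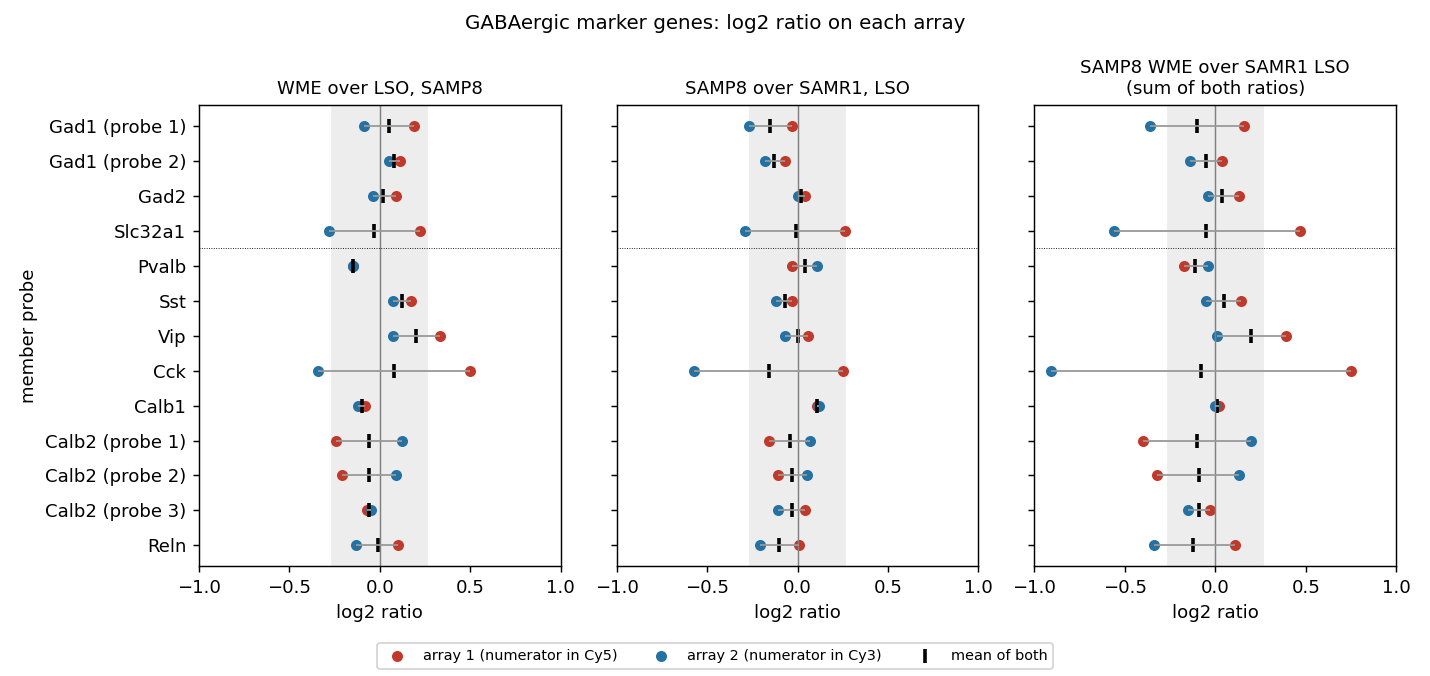
Log2 ratio of each of the 13 member probes on array 1 (red) and array 2 (blue) of the diet pair, the strain pair and their sum, with the mean of both arrays as a black bar. The grey band spans 1.2-fold in each direction, the dotted line parts the synthesis and packaging genes from the subclass markers, and probes are numbered by brightness. No probe has both points outside the band on the same side, and Cck and Slc32a1 have the points farthest apart.

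Among the synthesis and packaging genes, Gad1, which encodes the cytosolic decarboxylase GAD67, had the difference farthest from 0. The normalised log2 signal of its brightest probe was 15.61 and 15.75 in SAMR1 LSO, 15.53, 15.59, 15.59 and 15.48 in SAMP8 LSO, and 15.72 and 15.51 in SAMP8 WME. All 4 SAMP8 LSO signals lay below both SAMR1 signals, and the WME signals overlapped with those of SAMP8 LSO. The strain log2 ratio was -0.15 ± 0.17 (SD, 2 arrays), a fold of 0.902, with -0.03 on array 1 and -0.27 on array 2. The second Gad1 probe gave -0.13 ± 0.08, with -0.07 and -0.18. So both probes were below 0 in SAMP8 on both arrays, but by less than 1.2-fold on one or both of them. In the diet pair the probes stood at 0.05 ± 0.19 and 0.08 ± 0.04, and the brightest changed sign between arrays.

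Gad2 encodes the membrane-bound decarboxylase GAD65, and its signals in all 8 channels lay between 13.52, in 1 channel of each LSO RNA, and 13.66 in WME. Its log2 ratios were 0.02 ± 0.09 for diet and 0.02 ± 0.03 for strain. Slc32a1, the vesicular GABA transporter gene, read 0.22 and -0.28 on the diet arrays and 0.26 and -0.29 on the strain arrays. These values follow the dye, with dye terms of 0.25 and 0.27, and the means were -0.03 ± 0.35 for diet and -0.01 ± 0.39 for strain. Neither gene differed by more than 1 technical SD in either pair.

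**Figure D2:**
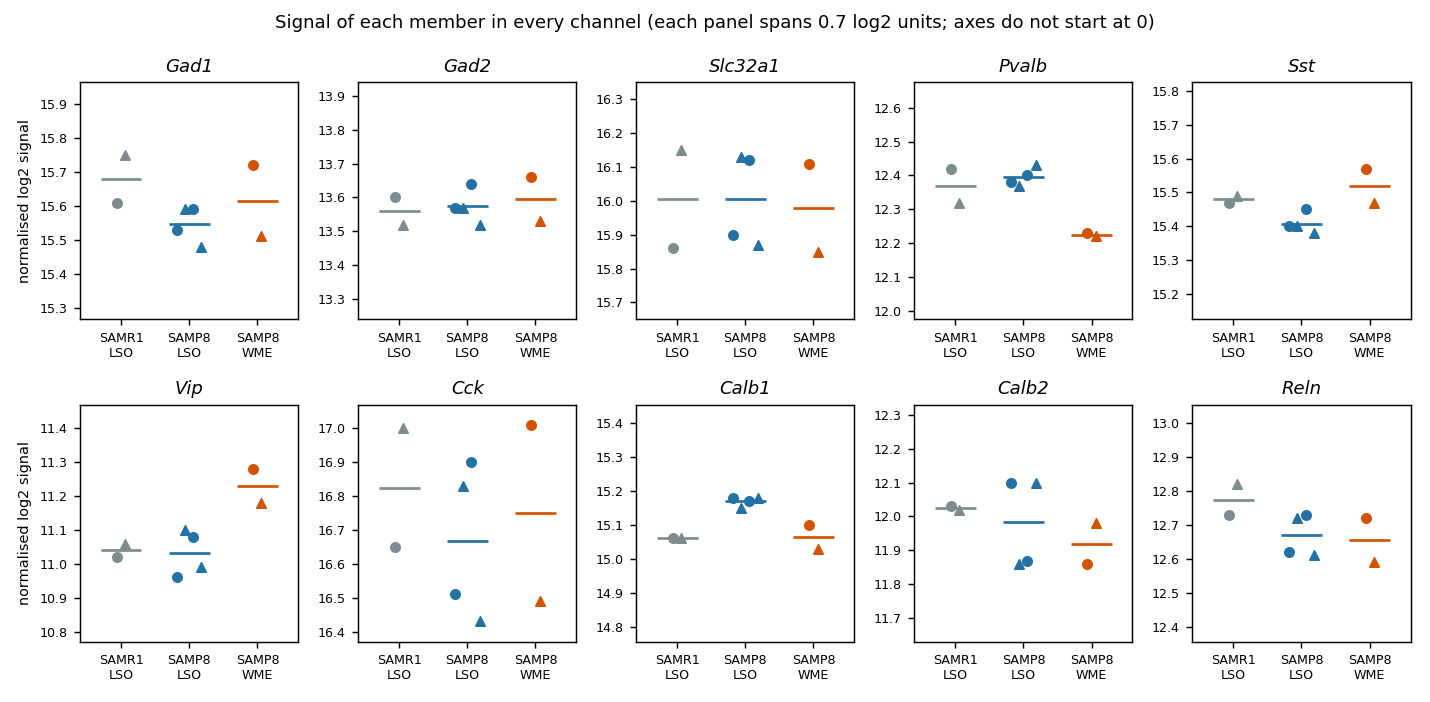
Normalised log2 signal of the brightest probe of each member in every channel, for SAMR1 LSO (grey), SAMP8 LSO (blue) and SAMP8 WME (orange). Circles are array 1 and triangles array 2 of a pair, lines are means, and each panel spans 0.7 log2 units around its own centre, so panels share no axis. Both WME points stand above all others for Vip and below all others for Pvalb, and the 4 SAMP8 LSO points stand above the others for Calb1.

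The peptide genes Vip, Sst and Cck had the 3 highest diet ratios of the 10 members. Vip encodes vasoactive intestinal peptide, the marker of interneurons that inhibit other interneurons. Its signals were 11.28 and 11.18 in WME, 10.96, 11.10, 11.08 and 10.99 in SAMP8 LSO, and 11.02 and 11.06 in SAMR1 LSO. Both WME signals lay above the 6 others, and those of the LSO RNAs overlapped. The diet log2 ratio was 0.20 ± 0.18 (0.33 and 0.07), a fold of 1.15, and 1.1% of measured probes lay as far from 0. The strain log2 ratio was 0.00 ± 0.09, and the sum was 0.20 ± 0.27 (0.39 and 0.01).

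Sst encodes somatostatin, the peptide of dendrite-targeting interneurons, and its probe was printed in 10 spots per array. Its signals were 15.57 and 15.47 in WME, 15.40, 15.40, 15.45 and 15.38 in SAMP8 LSO, and 15.47 and 15.49 in SAMR1 LSO. The SAMP8 LSO signals were the lowest, and WME and SAMR1 overlapped. The diet log2 ratio was 0.12 ± 0.07 (0.17 and 0.07), and all 9 spots kept on each diet array were above 0, from 0.13 to 0.22 on array 1 and from 0.03 to 0.12 on array 2. The strain log2 ratio was -0.07 ± 0.06 (-0.03 and -0.12), with 7 of 8 and 9 of 9 spots below 0, and the sum was 0.05 ± 0.13. Spots of 1 array share a hybridisation and are not replicates of the RNA.

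Cck encodes cholecystokinin, and its probe had the largest dye term of the members, 0.42 in the diet pair and 0.41 in the strain pair. Its signals were 17.01 and 16.49 in WME, 16.51, 16.83, 16.90 and 16.43 in SAMP8 LSO, and 16.65 and 17.00 in SAMR1 LSO, so all 3 RNAs overlapped. The diet log2 ratio was 0.08 ± 0.59 (0.50 and -0.34) and the strain ratio -0.16 ± 0.58 (0.25 and -0.57), with opposite signs on the 2 arrays in both. Cck had the strain ratio farthest from 0 among the members. The 5 named genes nearest to it over the 4 array ratios, of 14397 compared by Euclidean distance, were Thy1 (0.145), Ndufb8 (0.201), Atpif1 (0.204), Pgam1 (0.209) and Glul (0.215). They were picked by these same ratios, so their change of sign between the arrays of each pair is no separate result. Their mean strain log2 ratios, from -0.13 to -0.04, are not a separate result either.

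The stretches before the start sites of these 3 peptide genes are shown because textbook accounts place a cyclic AMP response element in the promoters of Sst and Vip. The 250 bases before each RefSeq start site (GRCm38.p6, printed 5′ to 3′ in the direction of the gene) are Sst at chr16:23890845-23891094 on the minus strand, Vip at chr10:5638968-5639217 on the plus strand and Cck at chr9:121495695-121495944 on the minus strand. Capitals mark every TGACG or its reverse complement CGTCA, the core of that element, searched on both strands.
Sst: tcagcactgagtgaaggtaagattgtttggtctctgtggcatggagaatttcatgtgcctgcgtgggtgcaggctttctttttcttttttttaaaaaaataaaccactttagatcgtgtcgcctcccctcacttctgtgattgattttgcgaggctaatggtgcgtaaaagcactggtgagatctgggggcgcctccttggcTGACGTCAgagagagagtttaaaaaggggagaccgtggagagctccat
Vip: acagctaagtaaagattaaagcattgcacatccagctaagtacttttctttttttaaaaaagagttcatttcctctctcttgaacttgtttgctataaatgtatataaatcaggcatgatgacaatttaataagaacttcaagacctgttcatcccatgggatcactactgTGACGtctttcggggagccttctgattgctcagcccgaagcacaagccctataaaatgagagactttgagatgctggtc
Cck: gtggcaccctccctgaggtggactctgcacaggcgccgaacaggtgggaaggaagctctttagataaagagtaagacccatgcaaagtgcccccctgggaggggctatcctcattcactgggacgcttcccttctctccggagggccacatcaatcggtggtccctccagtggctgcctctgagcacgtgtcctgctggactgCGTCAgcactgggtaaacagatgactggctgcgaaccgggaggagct
In Sst the 2 matches overlap and form the palindrome TGACGTCA, and the match nearest the start site begins 45 bases before it. The matches in Vip and Cck begin 79 and 47 bases before it. Of the 8 members with a promoter in the RefSeq table, 4 held the core (these 3 and Gad2, 33 bases before its start site) and 1 held the palindrome. Among 32817 promoter windows of 250 bases, 17.7% held the core and 1.55% the palindrome. A match is a description of the letters, and no binding was measured here. The diet log2 ratio of Gad2, which also held the core, was 0.02. Any link between the core and the diet ratios was not tested.

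The calcium-binding protein genes Pvalb, Calb1 and Calb2 had the 3 lowest diet ratios. Pvalb encodes parvalbumin, the marker of fast-spiking basket cells. Its signals were 12.23 and 12.22 in WME, 12.38, 12.37, 12.40 and 12.43 in SAMP8 LSO, and 12.42 and 12.32 in SAMR1 LSO. Both WME signals lay below the 6 others, and the LSO RNAs overlapped. The diet log2 ratio was -0.15 ± 0.01, with -0.15 on both arrays, a fold of 0.901, and 3.11% of measured probes lay as far from 0. The strain log2 ratio was 0.04 ± 0.10 (-0.03 and 0.11), and the sum was -0.11 ± 0.09 (-0.17 and -0.04).

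Calb1 encodes calbindin, and its probe was also printed in 10 spots. Its signals were 15.10 and 15.03 in WME, 15.18, 15.15, 15.17 and 15.18 in SAMP8 LSO, and 15.06 and 15.06 in SAMR1 LSO. All 4 SAMP8 LSO signals lay above the others, and WME overlapped with SAMR1. The diet log2 ratio was -0.10 ± 0.02 (-0.08 and -0.12), and all 8 spots kept on each array were below 0. The strain log2 ratio was 0.11 ± 0.01 (0.11 and 0.12), with all 8 spots on each array above 0, and the sum was 0.01 ± 0.02.

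Calb2 encodes calretinin and was read by 3 probes. Its diet log2 ratios were -0.06 ± 0.25, -0.06 ± 0.21 and -0.06 ± 0.01, and its strain ratios -0.04 ± 0.17, -0.03 ± 0.11 and -0.03 ± 0.10. The probes gave nearly the same means although the arrays of the first and second probe had opposite signs, and no mean reached 2 technical SDs. For the second probe all 10 spots were below 0 on diet array 1 (mean -0.21) and all 10 above 0 on diet array 2 (mean 0.09), so every spot changed sign with the array.

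Reln encodes reelin, a large extracellular protein that guides neuron placement and in the adult is made by interneurons. Its signals were 12.72 and 12.59 in WME, 12.62, 12.72, 12.73 and 12.61 in SAMP8 LSO, and 12.73 and 12.82 in SAMR1 LSO. The SAMR1 signals were the highest, one of them level with a SAMP8 LSO signal. The log2 ratios were -0.01 ± 0.17 for diet and -0.10 ± 0.15 for strain (0.01 and -0.21), where 5 of 10 spots on array 1 and 10 of 10 on array 2 were below 0. The sum was -0.12 ± 0.32.

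**Figure D3:**
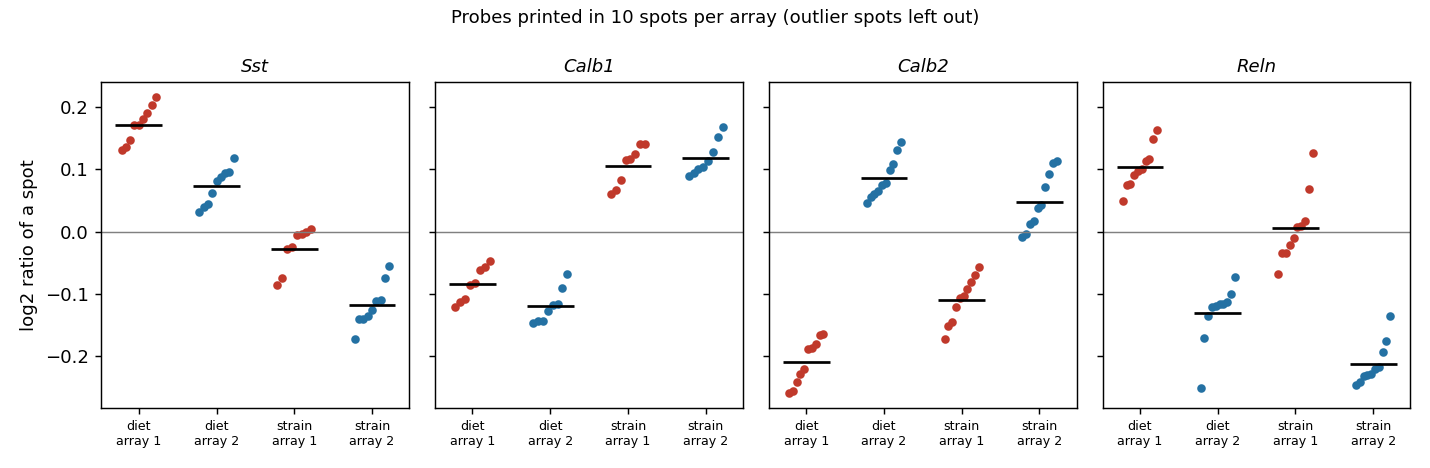
Log2 ratio of each spot (array 1 red, array 2 blue) for the 4 member probes printed in 10 spots per array, with outlier spots left out and the mean as a black line. Calb1 lies below 0 on both diet arrays and above 0 on both strain arrays, Sst lies above 0 on both diet arrays, and Calb2 and Reln change sign between the diet arrays.

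The subclass markers were then compared with the synthesis and packaging genes. In the diet pair the subclass markers spread from -0.15 to 0.20 (SD over 7 genes 0.13) and the 3 synthesis and packaging genes from -0.03 to 0.05. In the strain pair the subclass markers spread from -0.16 to 0.11 and the synthesis and packaging genes from -0.15 to 0.02. A range over 7 genes tends to be wider than one over 3. The subclass median minus the synthesis median in the diet pair was -0.09 on array 1 and -0.03 on array 2 (mean -0.06 ± 0.04). In the strain pair it was -0.03 and 0.21 (0.09 ± 0.17), and in the sum -0.06 and 0.31 (0.13 ± 0.26). When each gene's dye-averaged ratio was used before the median was taken, the differences were -0.04, -0.03 and -0.03. The sign for the strain pair and for the sum thus turned with the order of averaging, and no direction is given for either. The median over all measured genes was 0.01 in the diet pair, 0.00 in the strain pair and 0.01 in the sum.

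These readings depend on how the brightness trend of an array is removed. When each array was centred on its median with no such correction, the median of all named genes in the diet pair moved from 0.01 to 0.12, and all 10 members had a diet ratio above 0. Under that setting Pvalb stood at 0.03, below the median of all genes, and Calb1 at 0.13, above it. Vip stood at 0.36, past 1.2-fold on both arrays, and Sst at 0.36. The strain ratio of Calb1 was 0.00. When the brightness trend was then subtracted, the diet ratios were 0.20 for Vip, 0.14 for Sst, -0.16 for Pvalb and -0.09 for Calb1. Processed signals of the scanner program gave 0.18, 0.13, -0.16 and -0.09.

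Other genes of the GABA system were counted in lists set up from general knowledge. For counts by sign, the shares among all measured genes were 20.6% above and 14.6% below 0 on both diet arrays. On both strain arrays they were 25.9% above and 23.3% below. In the diet pair 0 genes of any of these lists passed 1.2-fold, and all ratios below are means of 2 arrays. That count depends on the brightness correction. Under median centring without it, 2 of the other interneuron peptides and markers, 1 receptor, 1 gene of the fast-spiking and net list, 1 EF-hand gene and 1 glutamatergic marker were past 1.2-fold higher in WME. Among all named genes 152 of 14744 were past 1.2-fold higher in WME under that setting, against 37 with the correction. The median of all named genes was then 0.12. Of 6 genes for GABA uptake and breakdown, 1 was past 1.2-fold higher in SAMP8 than in SAMR1, Slc6a13, a GABA and taurine transporter of meninges and vessels (0.44 ± 0.18, its other probe 0.46). Slc6a12, a betaine and GABA transporter, stood at 0.18 in the strain pair and -0.15 in the diet pair. The list's median was 0.10 for strain and -0.05 for diet. All 6 endothelial and mural markers were also above 0 on both strain arrays, 5 of them past 1.2-fold, with a median of 0.64. Those past 1.5-fold were Abcb1a, an efflux pump of brain vessels (1.96 ± 0.06), and the pericyte genes Pdgfrb (0.86 ± 0.21) and Rgs5 (0.83 ± 0.17). Their part in the ratio of Slc6a13 was not tested.

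Among 12 measured interneuron transcription factors, 2 were past 1.2-fold lower in SAMP8 than in SAMR1. Dlx2 (-0.32, with -0.32 and -0.31 on the arrays) and Dlx5 (-0.29, with -0.28 and -0.31) are homeobox genes that specify forebrain GABAergic neurons, and Dlx1 stood at -0.36 (-0.63 and -0.09). In all 7 of 12 were below 0 on both strain arrays and 2 above, with a median of -0.07. Lhx6, needed for Pvalb and Sst interneurons, stood at -0.02. In the diet pair 5 were above 0 on both arrays and 1 below, with a median of 0.06. Markers of the olfactory bulb, where Dlx genes mark newly added interneurons, moved with these strain ratios. Of 4 measured, 3 were below 0 on both strain arrays, with a median of -0.31 and the lowest ratio for Doc2g (-0.40), and their part was not tested.

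The other interneuron peptides and markers (15 measured) had 4 above and 4 below 0 on both strain arrays (median -0.01) and 6 above and 0 below on both diet arrays (median 0.05). Npy, a peptide made by many Sst cells, was at 0.15 for diet (0.16 and 0.14) and -0.08 for strain, and Crhbp at 0.13 for diet and -0.19 for strain. The strain ratio farthest from 0 in this list ran the other way, for Cnr1, the cannabinoid receptor gene of many Cck interneurons, at 0.24 (0.26 and 0.22), with -0.07 for diet (-0.21 and 0.06). The peptide gene Tac1 stood at 0.14 for strain (0.07 and 0.21) and 0.09 for diet. Glutamatergic neuron markers had a diet median of 0.08, with 5 of 8 above 0 on both arrays and 0 below. Their strain median was -0.13, farther from 0 than that of the interneuron transcription factors, with 6 of 8 below 0 on both arrays, 1 above and 0 past 1.2-fold. Tbr1, a transcription factor of cortical and olfactory bulb projection neurons, stood lowest at -0.30 (-0.34 and -0.26). Their part in the strain ratios of the Dlx genes and of Cckbr was not tested. Of 11 receptors for the member peptides and reelin, 7 were above 0 on both diet arrays and 1 below (median 0.08). In the strain pair 1 of 10 measured was past 1.2-fold, Cckbr, the cortical cholecystokinin receptor gene, at -0.46 (-0.55 and -0.38), with its other probe at -0.25. Its diet ratio was 0.19 (0.15 and 0.23), but its other probe gave 0.04 with opposite signs on the arrays (-0.14 and 0.22).

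Genes of fast-spiking channels and the perineuronal net, which surround or drive Pvalb cells, had medians of 0.00 for diet and -0.02 for strain over 13 genes, with 0 past 1.2-fold in either pair. Acan, the net's main proteoglycan, stood at 0.13 for diet and -0.14 for strain. So the diet ratio of Pvalb (-0.15) and that of Acan had opposite signs. Of 13 other EF-hand calcium-binding genes, 1 was past 1.2-fold in the strain pair, Scgn, secretagogin, at -0.36 (-0.46 and -0.27). Under median centring 0 of the 13 were past 1.2-fold in the strain pair, although the mean ratio of Scgn was still -0.35. With processed signals 1 of the 13 was past 1.2-fold lower, and Scgn stood lowest at -0.6.

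Markers of brain regions that also express member genes were read beside them. All 7 cerebellar markers were below 0 on both diet arrays, from -0.29 (Cbln1, a synaptic organiser of granule cells) to -0.22, with a median of -0.25 and 0 past 1.2-fold. In the strain pair 5 of 7 were above 0 on both arrays and 0 below, with a median of 0.11. Pvalb and Calb1, which Purkinje cells also express, had diet ratios of the same sign as this list, and Calb1 a strain ratio of the same sign. Calb2 and Reln, which granule cells express, had mean diet ratios of -0.06 and -0.01 by their brightest probes. Both changed sign between the diet arrays (Calb2 -0.24 and 0.12, Reln 0.10 and -0.13) and between the strain arrays. Their mean strain ratios (-0.04 and -0.10) had the opposite sign to the cerebellar strain median. Gad1, Gad2 and Slc32a1 stood at 0.05, 0.02 and -0.03 for diet, and at -0.15, 0.02 and -0.01 for strain. The part of cerebellar RNA in the ratios of these members was not tested. Under median centring without the brightness correction the cerebellar diet median was -0.08, against 0.12 for all genes. Striatal markers had medians of 0.01 for diet and 0.08 for strain.

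**Figure D4:**
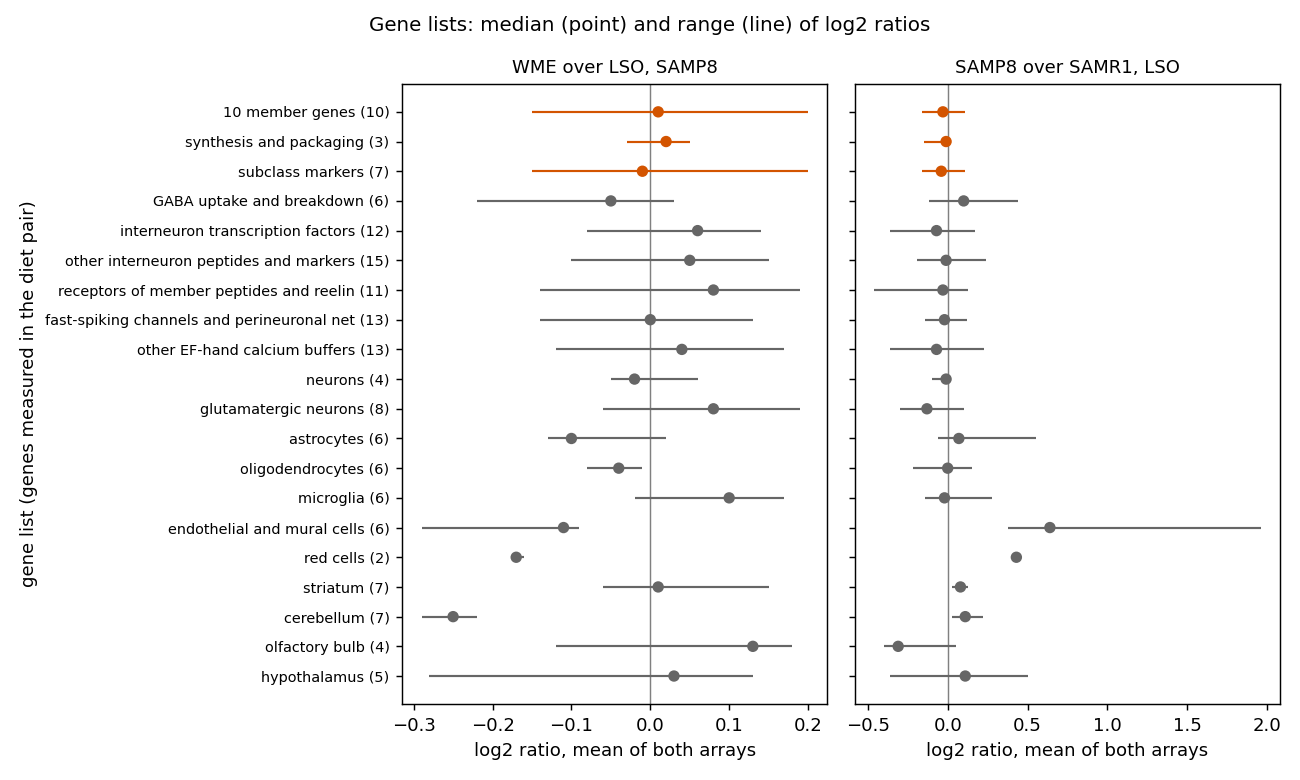
Median (point) and range (line) of the mean log2 ratios of each gene list in the diet pair (left) and the strain pair (right), with the member genes in orange and the number of genes measured in the diet pair in brackets. The member medians lie at 0.01 and -0.03, the cerebellar list lies wholly below 0 in the diet pair, and the endothelial and mural list lies wholly above 0 in the strain pair. The horizontal scales of the panels differ.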

How the data were processed

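Total RNA of whole brain was hybridised to 4 Agilent two-colour arrays on 1 slide, 2 per pair with dyes exchanged. The arrays of a pair are 1 replicate. The deposited scanner files hold raw median spot and background intensities and processed intensities, which were background-subtracted and dye-normalized with Agilent's Feature Extraction 11.0.1.1, as the deposited headers say. The deposited log10 ratio sets red over green and did not enter any result. The deposited series table holds log2 ratios equal to those of the processed signals (largest difference 5e-09), not turned for dye, with column medians of -0.0182, 0.0123, 0.00362 and 0.017.

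Median intensities were corrected with normexp (offset 50) and then loess-normalized within arrays (limma 3.58.1 under R 4.3.3). Control spots had weight 0, and outlier spots (105 to 123 per array) were left out. Spots of a probe were averaged, ratios were turned so that WME or SAMP8 is the numerator, and both arrays were averaged. The offset pulls ratios of dim probes towards 0. Channel signals were put on 1 scale by quantile normalization of the mean log2 intensity. Probes were named through RefSeq accessions (GRCm38.p6, for names and promoters only; the array's own build is mm8, per the file headers). A gene was read by its brightest probe and counted as measured when well above background in at least 1 RNA on both arrays. The steps were tested on simulated scanner signals.

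The members, the lists and the rules were chosen with earlier results of these data known. All members were named. From each other list, genes named were those past 1.5-fold and up to 3 with the largest ratio of 1 sign on both arrays in a comparison. Lhx6 falls outside that rule and was picked with its values in view. The 5 genes nearest to the member with the largest strain ratio were also named. Alternatives were no background correction, offset 0, median centring, processed signals, the median over probes, other filters on dim probes, outlier spots kept and each array left out. A brightness-trend correction and a different order of averaging were added after the values were seen.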

Additional observations from a re-analysis of the deposited data

How the results depend on the processing

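The count of members past 1.2-fold was 0 in each comparison under every setting that kept both arrays, except that it was 1 (Vip) in the diet pair under median centring without loess. Under that setting 152 of 14744 named genes were past 1.2-fold higher in the diet pair. With 1 array of a pair left out the dye bias is not cancelled, and the count of members at least 1.2-fold from 0 was 2 and 2 for diet, 3 and 0 for strain and 4 and 4 for the sum. The subclass minus synthesis median in the diet pair, -0.06, became -0.11 under median centring, 0.01 with processed signals and -0.01 with the brightness trend subtracted. It ran from -0.09 to -0.03 for diet, from -0.03 to 0.21 for strain and from -0.06 to 0.31 for the sum when 1 array was left out. Of 30 member ratios (10 genes in 3 comparisons), 11 moved by more than the SD of their 2 arrays under median centring, 2 with processed signals, 1 with no background correction and 1 with the brightness trend subtracted, and 0 under the other settings that kept both arrays. That SD includes the dye bias, so a probe with a large dye term is counted only after a large shift. The diet ratio of Cck went from 0.08 to 0.34 under median centring and was not counted. The causes were not tested. No paired analysis was possible because each comparison holds 1 pair of RNAs and no test was made.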
